A study of Mus musculus with 4 samples.

Results

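Decorin, fibrillar collagens and Igf2 belong to the connective tissue programme of the extracellular matrix, and 10 genes of this kind were followed through RNA sequencing libraries of cells sorted from the mouse spinal cord. They were chosen from the deposited count table by exact gene name, with their measured levels in these libraries already known, so their levels are given as a description and not as a test. The members are the small leucine-rich proteoglycan genes Dcn, Bgn, Lum and Fmod, the fibrillar collagen genes Col1a1, Col1a2 and Col3a1, the growth factor gene Igf2, the IGF-binding protein gene Igfbp4 and the matricellular gene Sparc. All 10 were found among the 42458 rows of the table. Of these, 7 had at least 1 count in some library and 6 had at least 10 counts in total.

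The study used 4 C57BL6 mice that had received AAV2-CAG-tdT, a virus carrying the red fluorescent protein tdTomato behind the broadly active CAG promoter, into a brain ventricle. The labels state that slices holding the ependymal region were digested, that tdTomato-positive cells were sorted to enrich for neurons in contact with the cerebrospinal fluid (CSF-cNs), which sit at the central canal, and that 50 cells per mouse were pooled into a library. All 4 libraries belong to that single group, so they give levels and the spread between mice but no contrast between conditions. The sources used here give neither age nor sex, and the uninjected preparation used to set the sort was not analysed here.

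Small leucine-rich proteoglycans are secreted core proteins with leucine-rich repeats that bind collagen fibrils and growth factors, and decorin and biglycan also carry chondroitin or dermatan sulfate chains. Type I collagen is a heteropolymer of the chains coded by Col1a1 and Col1a2, and type III collagen is built from the Col3a1 chain alone. In the central nervous system these fibrillar collagens are best known from fibroblasts of the meninges and of large vessels. Igf2 is an imprinted growth factor gene that is expressed in the meninges and choroid plexus. Igfbp4 codes for a secreted protein that binds IGFs, and Sparc codes for a collagen-binding glycoprotein that several glial cell types make.

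The libraries held 83007030 to 115479640 counts. Levels are given as CPM, counts corrected for library size and TMM factor, in the order of mice 1, 2, 3 and 4. The limit taken for a count of 0 was 3 counts, a one-sided bound of 0.0278 to 0.0348 CPM, where two-sided Clopper-Pearson intervals reach 0.0342 to 0.0428 CPM. The libraries did not look alike. The summed level of 9 CSF-cN markers was 20.3, 12.9, 941 and 846 CPM, so the label was not borne out by these markers in mice 1 and 2, and the transgene had 5, 58, 13533 and 153379 counts. The summed level of 10 microglia markers was 61098, 65313, 39579 and 56101 CPM, and that of 10 oligodendrocyte markers was 15065, 238, 19260 and 459 CPM. Where a call given here changed without mice 1 and 2, or a mean given for a member moved by over 1.5 times, the result without them is given too. Each library is a mixture, so fewer cells of a type and less RNA per cell cannot be told apart.

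The promoters of 4 members are shown because they belong to members with different distributions over the libraries: Sparc and Igfbp4 were present in all of them, Col1a2 in some, and Col3a1 in none. Each line holds the 250 bases before the annotated start, from RefSeq on GRCm38.p6 and in the direction of transcription. They lie at chr11:55420081-55420330 on the minus strand for Sparc and, on the plus strand, at chr11:99040994-99041243 for Igfbp4, at chr6:4505368-4505617 for Col1a2 and at chr1:45311288-45311537 for Col3a1. Capitals mark matches to the TATA box letters TATAAA, the GC box letters GGGCGG or the CCAAT box letters CCAAT on either strand.
Sparc: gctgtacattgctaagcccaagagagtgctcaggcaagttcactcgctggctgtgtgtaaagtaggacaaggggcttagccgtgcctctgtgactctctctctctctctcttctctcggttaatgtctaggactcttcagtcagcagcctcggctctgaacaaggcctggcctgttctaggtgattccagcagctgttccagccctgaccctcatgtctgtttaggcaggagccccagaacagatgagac
Igfbp4: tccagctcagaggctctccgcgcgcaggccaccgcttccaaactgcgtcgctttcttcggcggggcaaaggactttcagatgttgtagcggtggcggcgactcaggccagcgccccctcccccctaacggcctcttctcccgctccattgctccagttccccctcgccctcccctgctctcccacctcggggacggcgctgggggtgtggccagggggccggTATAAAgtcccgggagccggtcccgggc
Col1a2: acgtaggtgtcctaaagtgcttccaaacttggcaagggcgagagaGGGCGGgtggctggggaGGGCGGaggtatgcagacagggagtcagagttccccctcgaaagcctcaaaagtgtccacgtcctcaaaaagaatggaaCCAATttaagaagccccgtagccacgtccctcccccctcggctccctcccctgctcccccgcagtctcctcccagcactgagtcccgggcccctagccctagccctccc
Col3a1: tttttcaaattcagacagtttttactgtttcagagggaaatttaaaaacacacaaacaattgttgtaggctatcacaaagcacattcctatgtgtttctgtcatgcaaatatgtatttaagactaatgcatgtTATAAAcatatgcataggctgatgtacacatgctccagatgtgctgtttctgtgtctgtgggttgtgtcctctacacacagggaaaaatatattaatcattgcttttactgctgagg

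The Igfbp4 window held a TATAAA that begins 28 bases before the start, and the Col3a1 window held 1 that begins 117 bases before it. In the Col1a2 window GGGCGG began 205 and 188 bases before the start and CCAAT 109 bases before it. None of the 3 motifs matched in the Sparc window. Among all 32851 promoter windows of that length, 12.4% held TATAAA, 32.7% held GGGCGG and 33.8% held CCAAT on at least 1 strand. The promoter table matched 7 of the 10 members, and Dcn, Lum and Col1a1 had no entry. The start is that of RefSeq, and the gene models used for the positions given for each member can begin elsewhere. A match is a description of these letters and not evidence of binding.

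Dcn was by far the most uneven of the members with counts in every library. Its position is chromosome 10, 97479609 to 97518143, plus strand (ENSMUSG00000019929.16, GRCm38). It had 152, 9, 85310 and 9729 counts, or 1.41, 0.0963, 989 and 108 CPM. Counting error alone allowed 1.19 to 1.65, 0.0440 to 0.183, 982 to 996 and 106 to 111 CPM (95% Clopper-Pearson intervals, which treat PCR copies as independent molecules). The libraries of mice 3 and 4 were high and those of mice 1 and 2 were low. No pair of these intervals overlapped, but the same held for Igf2 and for the steadier Sparc, so this is not particular to Dcn. In mouse 3 Dcn was the 94th most abundant row of the table and took 0.103% of all counts. Its level in mouse 3 was 9.12 times that in mouse 4. The mean of 275 ± 479 CPM (SD, n = 4) was 36.6 CPM without mouse 3 and 549 CPM without mice 1 and 2.

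The 2 sequencing runs deposited for each mouse gave nearly the same Dcn levels. In mouse 3 they held 42319 and 42991 counts, and in mouse 4 they held 4825 and 4904. The second run over the first was 1.01 in both mice after scaling to the run totals. Over the 16 pairs of runs in which a member had at least 100 counts, this ratio lay between 0.779 (Igf2 in mouse 1) and 1.11 (Dcn in mouse 1). Repeat runs of a library show sequencing error only, not the variation from sorting and amplifying cells.

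The other proteoglycan members were absent or nearly so in the libraries where Dcn was high. Bgn, coding for the closest relative of decorin, had no count in mice 1, 2 and 3 and 1 count in mouse 4, which is within what a count of 0 allows. Fmod, the fibromodulin gene, had no count in any library. Lum, the lumican gene, had 69 counts in mouse 4 alone, or 0.769 CPM (95% Clopper-Pearson interval 0.598 to 0.973), and none in mice 1, 2 and 3. Scaled to exonic length, Dcn stood 59.1 times above Lum in mouse 4 (18.6 against 0.314 CPM per kilobase).

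Dcn thus made up nearly the whole signal of its family in mice 3 and 4. Among the counts of 17 small leucine-rich proteoglycan genes, the share of Dcn was 21.8%, 2.93%, 99.7% and 99.2% (95% Clopper-Pearson intervals 18.8 to 25.1, 1.35 to 5.49, 99.6 to 99.7 and 99.0 to 99.3). Lum is the next protein-coding gene after Dcn on chromosome 10, 46985 bases downstream, and is followed by the keratocan gene Kera and the epiphycan gene Epyc, all of the same family. Neither Kera nor Epyc had a count in any library. Of 13 further genes of the family, 6 had no count at all and 5 could be tested. The highest were Chad, which codes for the cartilage protein chondroadherin (3.00, 2.96, 1.62 and 0 CPM), Nyx (1.96, 0.0749, 0.0232 and 0 CPM) and Ecm2 (0, 0, 1.29 and 0.0223 CPM). Of these Ecm2 was highest in mouse 3, and Chad and Nyx were highest in mouse 1.

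**Figure D1:**
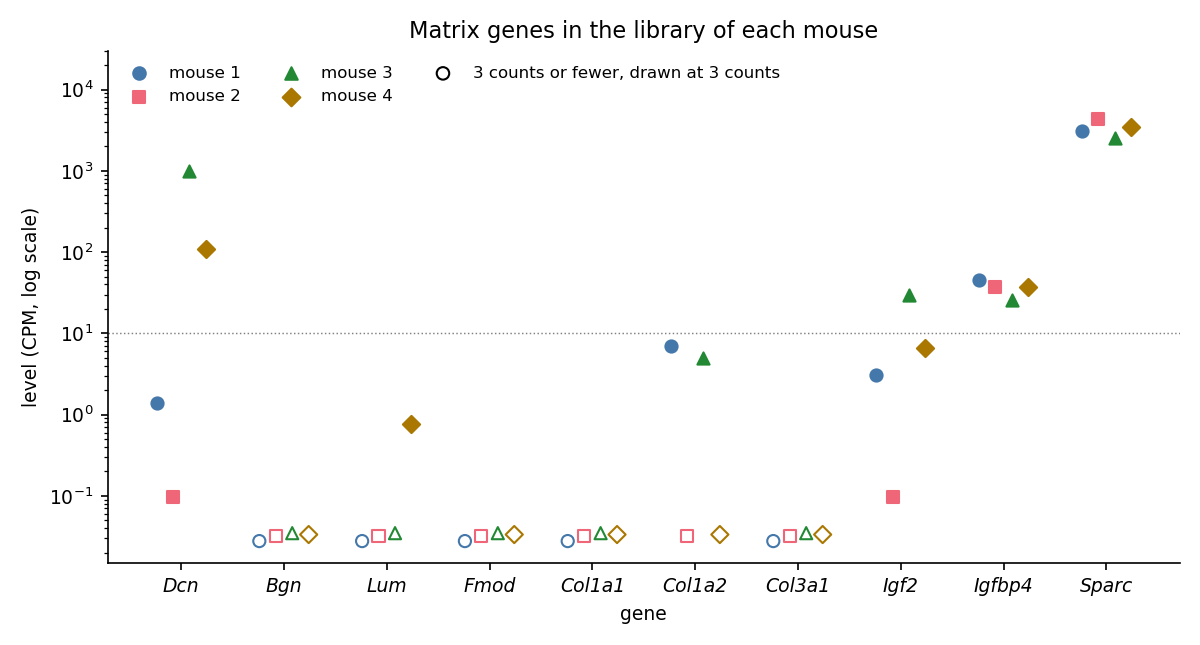
Levels of the 10 genes (CPM, log axis) in the library of each of 4 mice, 1 symbol per library. Open symbols stand for 3 counts or fewer and are drawn at the level of 3 counts, and the dotted line marks 10 CPM. Dcn runs between 0.0963 and 989 CPM, while Sparc and Igfbp4 stay within a factor of 1.74 over the libraries.

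Among the fibrillar collagen members, Col1a2 alone had counts. Col1a1, coding for the main chain of type I collagen (chromosome 11, 94936224 to 94953042, plus strand), and Col3a1 (chromosome 1, 45311538 to 45349706, plus strand) were without a count in all 4 libraries. Col1a2, coding for the partner chain of type I collagen (chromosome 6, 4504814 to 4541544, plus strand), had 752, 1, 435 and 0 counts, or 6.96, 0.0107, 5.04 and 0 CPM. It was therefore present in mice 1 and 3 and within what a count of 0 allows in mice 2 and 4, a different split of the libraries from that of Dcn. Its level in mouse 1 was at least 208 times the 3-count floor of mouse 4.

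The libraries with Col1a2 were also those rich in oligodendrocyte transcripts. The summed oligodendrocyte markers reached 15065 and 19260 CPM in mice 1 and 3, against 238 and 459 CPM in mice 2 and 4, and Mbp, which codes for a major myelin protein, was at 1312, 31.3, 1690 and 217 CPM in mice 1, 2, 3 and 4. The summed astrocyte and fibroblast markers, given below, were also higher in mice 1 and 3 than in mice 2 and 4. The part of any of these cells in the Col1a2 level was not tested. The nearest protein-coding genes on each side of Col1a2 are Casd1, 59295 bases downstream, and Bet1, 417842 bases upstream. Both had counts in every library, Casd1 at 54.2, 49.1, 74.0 and 69.8 CPM and Bet1 at 94.0, 83.5, 114 and 46.7 CPM. The next protein-coding gene upstream is Gng11, a G protein gamma subunit gene 496369 bases away. Gng11, added here after its values were seen, had 85.4, 2.59, 138 and 0.0780 CPM and so was also high in mice 1 and 3.

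Among the 8 other fibrillar collagen genes, Col27a1 alone had counts well above the floor in every library (12.8, 16.9, 13.0 and 7.91 CPM). Col11a2 was at 3.59, 0.0107, 3.98 and 0.657 CPM, high in mice 1 and 3 as Col1a2 was, and rows that repeat its name make this value uncertain. Several genes had counts over the floor in a single library: Col2a1 (1.47 CPM), Col5a1 (0.151 CPM) and Col5a2 (2.07 CPM) in mouse 3, and Col5a3 (0.992 CPM) in mouse 4. Col11a1 stood at 1.23 CPM in mouse 2 and 0.123 CPM in mouse 4, and Col24a1 had no count. Col5a2, a neighbour of Col3a1 at 24615 bases, codes for a chain of type V collagen, which forms mixed fibrils with type I.

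**Figure D2:**
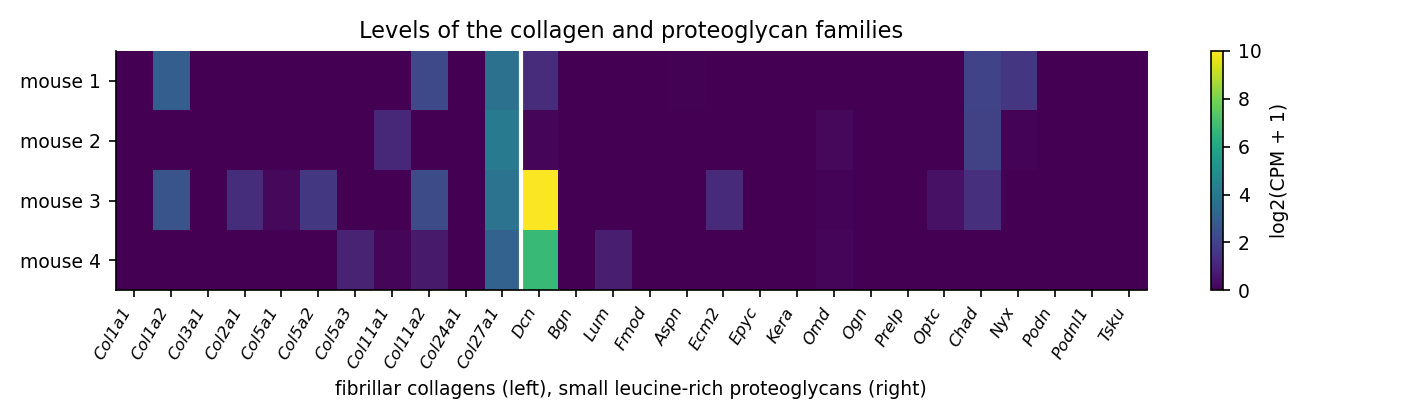
Levels as log2(CPM + 1) of the fibrillar collagen genes (left block) and the small leucine-rich proteoglycan genes (right block), with a row for the library of each mouse. Dcn in mice 3 and 4 gives the brightest cells, Col27a1 is faint in all 4 rows, and Col1a1, Col3a1, Bgn and Fmod are dark throughout.

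Fibroblast markers were examined because these collagens and Dcn are textbook fibroblast genes. Of 16 fibroblast markers, 11 had no count in any library, among them Pdgfra, the PDGF receptor gene, and Slc6a13, a transporter gene of meningeal fibroblasts. The list summed to 3.46, 0, 4.56 and 0.513 CPM. Its highest members were Pi16, a protease inhibitor gene, at 0, 0, 2.96 and 0.513 CPM, and the sulfate transporter gene Slc13a4 at 2.46 CPM in mouse 1 and without counts elsewhere. The part of fibroblasts in the levels of Dcn and Col1a2 was not tested. The mural cell list summed to 0.157, 0.0428, 0.0116 and 4.86 CPM, led by the smooth muscle genes Acta2 (2.61 CPM in mouse 4) and Tagln (2.21 CPM in mouse 4). The endothelial list summed to 21.3, 20.5, 14.2 and 23.2 CPM, with most of it from Pecam1 (18.1, 12.1, 9.04 and 14.6 CPM). Flt1, the VEGF receptor gene of that list, was at 0, 0.0214, 5.18 and 8.46 CPM.

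Of 9 CSF-cN markers, 8 were higher in both mice 3 and 4 than in both mice 1 and 2, as Dcn was, and P2rx2 had no count. By the smallest margin this held for the transcription factor gene Tal1, at 0.898, 10.3, 10.8 and 14.8 CPM. Pkd2l1, the channel gene that marks CSF-cNs, was at 17.9, 0.193, 664 and 690 CPM, and like Dcn was high in mice 3 and 4. Relative to Pkd2l1, however, Dcn differed between these 2 libraries: per kilobase of exon, the ratio of Dcn to Pkd2l1 was 0.900 in mouse 3 and 0.0950 in mouse 4. The transgene differed in the other direction, with 157 CPM in mouse 3 and 1709 CPM in mouse 4. General neuronal markers summed to 129, 105, 1087 and 410 CPM, and 6 of 10 split the libraries in that way. The neurofilament genes did not, with Nefl at 0.00926, 14.5, 1.73 and 3.53 CPM and Nefm at 3.51, 14.8, 1.19 and 22.1 CPM. Snap25, whose product acts in synaptic vesicle fusion, was at 19.9, 54.7, 385 and 167 CPM. Uchl1, a gene of a neuronal deubiquitinating enzyme, was at 78.6, 4.01, 272 and 66.7 CPM. Ependymal markers summed to 1.72, 3.40, 16.9 and 75.4 CPM and precursors of oligodendrocytes to 0.0833, 0, 13.7 and 6.24 CPM, and 5 of 10 and 3 of 7 of these genes were higher in both mice 3 and 4. Ccdc153 and Fam183b led the ependymal list (15.8 and 12.2 CPM in mouse 4), and Lhfpl3 and Cacng4 the precursor list (9.86 and 2.10 CPM in mouse 3). The share of all genes that split the libraries in that way is not given here, so these counts are a description. Mice 3 and 4 also had more genes with a count (17291 and 16893) than mice 1 and 2 (15773 and 15869). Which cells carried the Dcn RNA was not tested.

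The genes with the most similar profile to Dcn were taken from all 9125 genes whose mean reached 10 CPM, by the root-mean-square difference of log2(CPM + 1) over the 4 libraries after removing each gene's own mean. They were the polycystin family gene Pkd1l2 (difference 1.10; 0.0463, 0, 108 and 47.9 CPM), the RNA-binding protein gene Celf4 (1.14; 0.167, 0.567, 171 and 100 CPM), the thrombin receptor gene F2r (1.19; 0.0648, 0, 91.6 and 28.9 CPM), the glutaminyl cyclase gene Qpct (1.21; 0.0278, 0.0535, 129 and 115 CPM) and Tmem130 (1.26; 0.0556, 0.0642, 135 and 142 CPM). Pkd1l2 is itself a member of the CSF-cN list. All of these genes had nearly no counts in mice 1 and 2, and their ratio of mouse 3 to mouse 4 was smaller than that of Dcn. With 4 libraries many profiles look alike, so this order is a description.

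**Figure D3:**
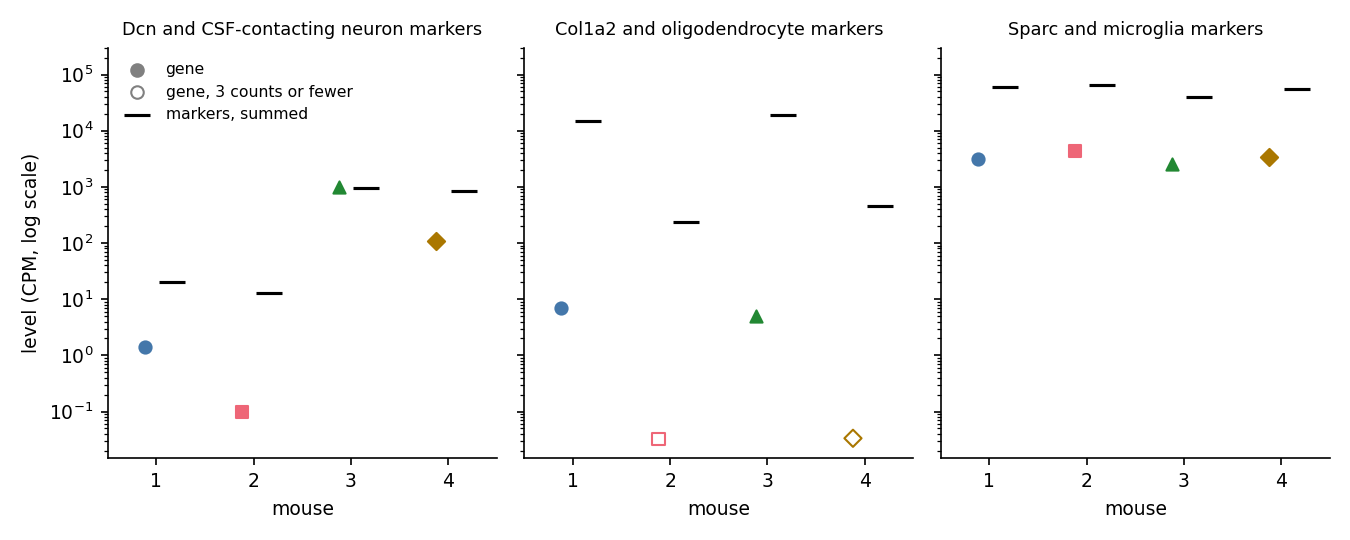
Level of Dcn, Col1a2 and Sparc (symbols) beside the summed level of a marker list (black dashes), CPM on a log axis, for mice 1 to 4. Dcn and the CSF-cN markers are both higher in mice 3 and 4, and Col1a2 and the oligodendrocyte markers in mice 1 and 3. Sparc and the microglia markers are present in all 4 libraries. Of lists not drawn, summed neuron, ependymal and oligodendrocyte precursor markers were also higher in mice 3 and 4. Summed astrocyte and fibroblast markers were also higher in mice 1 and 3.

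Igf2 was lower than Dcn in mice 3 and 4 but not in mice 1 and 2, and it ranked the libraries in the same order. Its position is chromosome 7, 142650766 to 142666816, minus strand (ENSMUSG00000048583.16). It had 333, 9, 2541 and 593 counts, which is 3.08, 0.0963, 29.5 and 6.61 CPM. The mean was 9.81 ± 13.4 CPM (SD, n = 4), 3.26 CPM without mouse 3 and 18.0 CPM without mice 1 and 2. As with Dcn, mouse 3 was highest, then mouse 4, mouse 1 and mouse 2, but the gap between mice 3 and 4 was smaller, at 4.46 times. Per kilobase of exon the ratio of Dcn to Igf2 was 0.447, 0.980, 32.9 and 16.1.

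At the Igf2 locus the neighbouring transcripts did not follow Igf2 into every library. H19, the maternally expressed imprinted RNA of the same cluster, had 446 counts in mouse 3 (5.17 CPM) and none in mice 1, 2 and 4. Ins2, an insulin gene 11840 bases away, had no count. Igf2os, transcribed antisense to Igf2, had 137 counts in mouse 4 alone (1.53 CPM) and shares 98 exonic bases with Igf2. The gene model of Igf2 also shares 62.8% of its exonic bases with the same-strand gene model Gm49394, which has no row in the table used here. The libraries do not keep the strand, so the Igf2 value carries an uncertainty from these overlaps.

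The rest of the IGF axis was examined next. Whether a level differed from 10 CPM was tested over 18522 genes with at least 10 counts, by edgeR's quasi-likelihood test with Benjamini-Hochberg adjustment at 0.05. Of 15 tested genes of this list, 2 were called above 10 CPM and 0 below, which is 13.3% against 36.7% of all tested genes. They were the insulin receptor gene Insr (48.5, 34.5, 25.0 and 17.9 CPM, edgeR adjusted p = 0.0014) and the adaptor gene Irs2 (28.1, 16.1, 25.9 and 14.2 CPM, edgeR adjusted p = 0.018). The call of Irs2 was lost without mouse 1 (adjusted p = 0.087) and without mouse 3 (adjusted p = 0.10), and DESeq2 did not call it (adjusted p = 0.13). Leaving out mice 1 and 2, which was added once the data had been seen, neither gene was called (adjusted p = 0.061 for Insr and 0.11 for Irs2). Igf2bp2, which codes for a protein that binds Igf2 mRNA, stood at 5.30, 19.1, 7.22 and 19.8 CPM and was not called.

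Other IGF-binding protein genes were much lower than Igfbp4. Igfbp5 was at 0, 0.0107, 3.40 and 0.0780 CPM, Igfbp6 at 0, 0, 0.777 and 1.36 CPM, and Igfbp7 at 3.66, 0.0321, 0 and 1.73 CPM. Igfbp3 had 3, 0, 0 and 8 counts, and Igfbp1 and Igfbp2 had none. Igfbp5 and Igfbp6 had their counts over the floor in mice 3 and 4, and Igfbp7 in mice 1 and 4.

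Igfbp4 itself was steady. The gene is at chromosome 11, 99041244 to 99054392, plus strand (ENSMUSG00000017493.12). It had 4869, 3478, 2236 and 3293 counts, which is 45.1, 37.2, 25.9 and 36.7 CPM. The mean was 36.2 ± 7.87 CPM (SD, n = 4). The highest library, mouse 1, was 1.74 times the lowest, mouse 3, which was the library with the most Dcn and Igf2. The profiles closest to Igfbp4 by the same measure were those of Gatc (difference 0.0105), Zfp280c (0.0196), Asap1 (0.0273), Serinc3 (0.0307) and the chromatin protein gene Hmgb2 (0.0353), with means between 27.3 CPM for Zfp280c and 7708 CPM for Serinc3.

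Sparc was the most abundant of the 10 members in all 4 libraries, whether per count or per kilobase of exon. Its position is chromosome 11, 55394500 to 55423183, minus strand (ENSMUSG00000018593.13). It had 337871, 410731, 220787 and 311839 counts, which is 3129, 4396, 2559 and 3475 CPM. The mean was 3390 ± 770 CPM (SD, n = 4). It ranked 29th, 22nd, 31st and 23rd among all rows in mice 1, 2, 3 and 4 and took 0.266% to 0.432% of the counts. Its coefficient of variation over mice was 22.7%, close to the 21.7% of Igfbp4 and far below the 174% of Dcn and the 136% of Igf2. Per kilobase, Sparc exceeded Igfbp4 80.9, 138, 115 and 110 times. It exceeded Dcn only 3.99 times in mouse 3.

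Microglia markers were abundant in every library as Sparc was. P2ry12, a purinergic receptor gene of microglia, was at 8211, 8338, 5348 and 7256 CPM. It was lowest in mouse 3, the library in which Sparc and Igfbp4 were lowest. The part of microglia markers in the Sparc level was not tested. The profiles most like Sparc were those of the adaptor gene Sh3bp2 (difference 0.00601), the G protein gene Gnai2 (0.0153), the actin-sequestering gene Tmsb4x (0.0163), Edem2 (0.0207) and the kinase gene Ptk2b (0.0220), with means between 24.1 CPM for Sh3bp2 and 4853 CPM for Tmsb4x. Astrocytes are also known to make Sparc, and their markers summed to 1253, 161, 1348 and 289 CPM, and their part in the Sparc level was not tested either. That list was led by Aldoc, a gene of glycolysis, with 835, 11.6, 846 and 118 CPM. S100b, a calcium-binding protein gene, came next with 298, 4.20, 440 and 10.5 CPM. Other members went differently, with the glutamate transporter gene Slc1a3 at 115, 122, 52.1 and 155 CPM and the intermediate filament gene Gfap at 3.91, 23.4, 7.79 and 0 CPM.

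Of the 6 members that could be tested, Dcn, Igfbp4 and Sparc were called above 10 CPM by edgeR and none below, where 36.7% of all 18522 tested genes were called above and 0.669% below. The log2 level relative to 10 CPM was 4.78 for Dcn (SE 0.72), 1.86 for Igfbp4 (SE 0.17) and 8.40 for Sparc (SE 0.043). Their edgeR adjusted p was 0.0017, 1.4e-04 and 4.7e-10. Each SE was derived from the test, as the absolute log2 level over the square root of its F statistic. For Dcn the SE was larger with DESeq2 (1.65) and with limma-voom (1.80). Since the members were chosen with their levels known, nothing is read from the number of members called. limma-voom takes means of log values and called Igfbp4 and Sparc above 10 CPM and Lum below, where it called 35.9% of tested genes above and 33.3% below. It did not call Dcn (adjusted p = 0.96), and edgeR did not call it without mouse 3 (adjusted p = 0.32). DESeq2 gave no adjusted p for Dcn. The Dcn call thus rests on mouse 3. Without mice 1 and 2 edgeR again called Dcn, Igfbp4 and Sparc, with an adjusted p of 2.1e-04 for Dcn.

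Around these members stood 10 lists with 195 other matrix genes, of which 134 could be tested. edgeR called 31 of them above 10 CPM and 0 below (37 had an unadjusted p under 0.05 in either direction), which is 23.1% against 36.7% of all tested genes. limma-voom called 30 above and 62 below, and DESeq2 28 above and 14 below. The median of their mean levels was 3.03 CPM, against 9.52 CPM over all tested genes. None of the 5 tested small leucine-rich proteoglycan genes, 7 fibrillar collagen genes or 15 non-fibrillar collagen genes was called above or below by edgeR, and the unadjusted p was under 0.05 for 1, 0 and 1 of them. limma-voom called 4, 5 and 12 of them below 10 CPM and 0 above, and DESeq2 2, 1 and 3 below and 0 above. The highest non-fibrillar collagens were Col14a1 (3.57, 6.97, 6.22 and 3.22 CPM), Col15a1 (2.62, 7.61, 0.811 and 2.02 CPM) and Col9a3 (0.333, 0, 7.07 and 0 CPM).

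Of 23 tested genes that fold, process or cross-link collagen, 8 were called above 10 CPM and 0 below, which is 34.8% against 36.7% of all tested genes. P4hb, which codes for a protein disulfide isomerase that is also a subunit of prolyl 4-hydroxylase, had a mean of 422 ± 59.0 CPM, the prolyl isomerase gene Ppib 226 ± 33.2 CPM and the hydroxylase gene P4ha1 225 ± 35.7 CPM (SD, n = 4). These were at 368 CPM or more (P4hb), 193 CPM or more (Ppib) and 189 CPM or more (P4ha1) in every library. P4hb and Ppib also serve the folding of many other secreted proteins. The others called were Plod1, Plod3, P3h2, Colgalt1 and Crtap. The call of Crtap was lost whichever mouse was left out, and also without mice 1 and 2 (edgeR adjusted p = 0.19). Serpinh1, which codes for the collagen chaperone, was at 0, 0, 3.91 and 4.43 CPM, and the cross-linking enzyme gene Lox at 0.222, 12.1, 0 and 0 CPM. Neither was called.

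The next list held the enzymes that build chondroitin and dermatan sulfate chains, which decorin carries. Of 20 tested genes, 8 were called above 10 CPM and 0 below, or 40% against 36.7% of all tested genes. Chst12, a chondroitin sulfotransferase gene, had a mean of 87.4 ± 11.2 CPM, the related gene Chst7 34.4 ± 14.0 CPM and the xylose kinase gene Fam20b 32.1 ± 12.3 CPM (SD, n = 4). Without mice 1 and 2 Fam20b was not called. Dse, which codes for the epimerase that turns chondroitin into dermatan sulfate, was also called. None of Chst12, Chst7 and Fam20b had its highest value in mouse 3.

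Among ligands and receptors that decorin or biglycan bind, 6 of 9 tested genes were called above 10 CPM and 0 below, or 66.7% against 36.7% of all tested genes. The TGF-beta receptor genes Tgfbr1 and Tgfbr2 had means of 980 ± 231 and 226 ± 85.2 CPM, and Tlr4, an innate immune receptor gene, 220 ± 40.6 CPM (SD, n = 4). All 3 were lowest in mouse 3. Tgfb1, Tlr2 and Lrp1 were called as well. Of 5 tested collagen receptor genes, 2 were called above and 0 below, or 40% against 36.7% of all tested genes. They were Lair1, an inhibitory receptor gene of immune cells (1143 ± 317 CPM), and the integrin gene Itgb1 (321 ± 29.6 CPM). Ddr1, a receptor tyrosine kinase gene, had 12.9, 0.0749, 8.33 and 10.7 CPM without a call.

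Matricellular and adhesive glycoprotein genes other than Sparc were mostly low. Of 22 tested, Spock3 alone was called above 10 CPM, and 0 below, which is 4.55% against 36.7% of all tested genes. Spock3, which codes for a proteoglycan of the Sparc family, had 307, 0.139, 378 and 3.14 CPM, and was high in mice 1 and 3 as the oligodendrocyte markers were. Its call (edgeR adjusted p = 0.0034) was lost without mouse 3 (adjusted p = 0.054) and under limma-voom (adjusted p = 0.72). The osteopontin gene Spp1 was at 5.76, 99.3, 1.82 and 5.36 CPM, and the fibulin family gene Efemp2 at 6.50, 19.4, 7.95 and 31.8 CPM.

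Matrix proteases and their inhibitors completed the lists, with 4 of 13 tested genes called above 10 CPM and 0 below, or 30.8% against 36.7% of all tested genes. Timp2, a metalloprotease inhibitor gene, had a mean of 437 ± 109 CPM, the protease gene Adamts1 88.5 ± 59.6 CPM and the membrane-bound protease gene Mmp14 36.9 ± 14.0 CPM (SD, n = 4). Adamts1 was uneven, at 173, 73.6, 32.7 and 74.8 CPM. Mmp2, a secreted protease gene, was also called. Without mice 1 and 2 this count was 5, since Timp3 was then called, and the count over all 10 lists was 28.

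**Figure D4:**
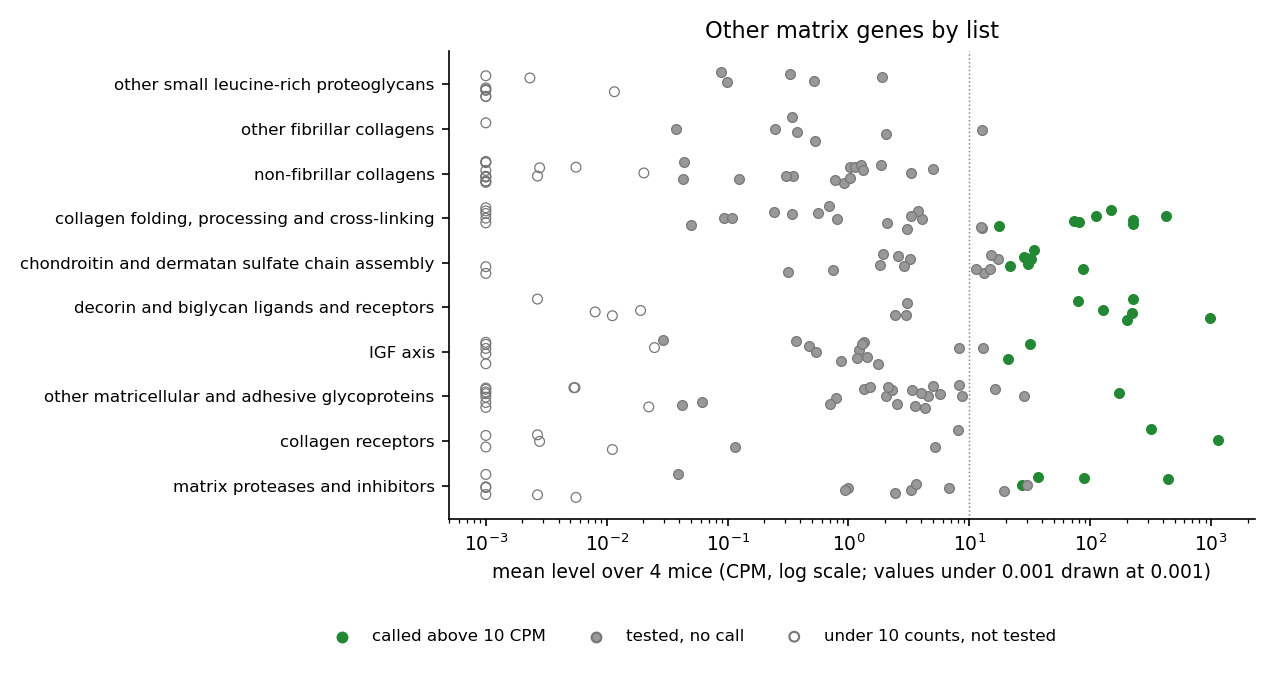
Mean level over 4 mice (CPM, log axis) of 195 matrix genes in 10 lists, 1 point per gene. Filled green points were called above 10 CPM by edgeR, grey points were tested without a call, and open points had under 10 counts. The green points are in the lists of enzymes, receptors, proteases and inhibitors, IGF axis genes and, for Spock3 alone, matricellular genes, and the lists of collagen genes and of small leucine-rich proteoglycan genes hold none.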

How the data were processed

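The table of counts that the authors deposited holds whole numbers, with 2 columns per mouse, beside a second table of log2 values. Build mm10 and the tools STAR, RSEM, DESeq2, Trim Galore and FastQC are named, per the submitters' processing notes. Versions, settings and annotation are not stated in these sources, nor whether RSEM estimates were rounded. Per the labels' protocols, cDNA came from a SMART-Seq v4 kit with 11 PCR cycles and libraries from Nextera XT, which keep neither strand nor molecular identifiers. The deposited log2 values equal log2 of summed counts over a DESeq2 size factor, plus 1, and served as an alternative.

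Both columns of a mouse were summed as repeat runs of a library, so n counts mice. Nothing states that columns were numbered as the mice other than the shared number. CPM used edgeR 4.0.16 TMM factors (R 4.3.3). The level test is an intercept-only quasi-likelihood F test against 10 CPM over genes with at least 10 counts, computed from fitted deviances. limma-voom 3.58.1 and DESeq2 1.42.0 were alternatives, and all were tested on simulated data. Exonic lengths and positions are from GENCODE M21 on GRCm38, and were found for all 303 listed genes. Levels at mice with no counts carry a floor of 3 counts.

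The members and all lists were chosen with earlier results of these data known. The genes named are all members, the 3 highest of each matrix list, every fibrillar collagen and IGF-binding protein gene, the 2 highest of each marker list (2 of these genes are not reported here), and the 5 closest profiles to each member with a mean of at least 10 CPM. Genes called in a list, Dse, Mmp2, Serpinh1, Lox, Pdgfra, Slc6a13, Tal1, P2rx2, Nefl, Nefm, Slc1a3, Gfap, H19, Igf2os, Ins2, Kera, Epyc, Gng11, Gm49394, Timp3, Adamts4, Fstl1 and Tnr were added after their values were seen. So were Bet1 and Casd1, the nearest neighbours of Col1a2.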

Additional observations from a re-analysis of the deposited data

Results flagged for a closer look

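A library was singled out where its gap to the nearest of the other 3 passed Dixon's 95% critical value for 4 samples as a share of their range. Chance gives about 1 in 20 such cases, and 21 of 117 sets of values met it, many of them genes with counts in a single library, which meet it by construction.

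Among the members, Dcn in mouse 3 (989 CPM) stood apart. Lum (0.769 CPM) and Bgn (0.0111 CPM, 1 count) had counts in mouse 4 alone and met the limit by construction. The 1 count of Bgn is within what a count of 0 allows. The members were chosen with these values known, so their flags are a description and not a test. Mouse 3 also stood apart for H19 (5.17 CPM), Igfbp5 (3.40 CPM), the collagen genes Col9a3 (7.07 CPM), Col5a2 (2.07 CPM), Col2a1 (1.47 CPM) and Col5a1 (0.151 CPM), and the proteoglycan gene Ecm2 (1.29 CPM). In mouse 4 it was Col5a3 (0.992 CPM), Igf2os (1.53 CPM), Acta2 (2.61 CPM), Tagln (2.21 CPM), the summed mural list (4.86 CPM), the ependymal gene Ccdc153 (15.8 CPM) and the transgene (1709 CPM). Mouse 1 was apart for Nyx (1.96 CPM) and Slc13a4 (2.46 CPM), and mouse 2 for Spp1 (99.3 CPM) and Col11a1 (1.23 CPM).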

How the results depend on the processing

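No paired analysis was possible because there is a single group. The count of genes above 10 CPM (6790) lay between 6147 and 6889 under all alternatives, and was 6305 to 6569 when a mouse was left out. The 31 matrix list genes called above became 27 to 29 when a mouse was left out, 28 without mice 1 and 2 and 28 with DESeq2. Calls below 10 CPM were not stable. Over all genes there were 124, against 2488 with no filter on counts, 2041 with DESeq2, 6164 with limma-voom, 31 and 52 from the first and second run alone, and 0 when any mouse, or mice 1 and 2 together, were left out. In the matrix lists there were 0, against 16 with no filter, 14 with DESeq2, 62 with limma-voom and 1 from the first run alone. The tools average differently over mice, and the cause was not tested.

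Member levels moved by less than their SD over mice under every alternative except scaling by length. Scaling gave 8.20 CPM per kilobase for Igfbp4 and 895 for Sparc, a change of unit. With 4 mice, a mean cannot move by its SD when 1 mouse, or mice 1 and 2, are left out. For those settings this limit therefore says nothing, and the means themselves are given. Leaving out a mouse put the mean of Dcn between 36.6 CPM (without mouse 3) and 366 CPM, that of Igf2 between 3.26 CPM (without mouse 3) and 13.0 CPM (549 and 18.0 CPM without mice 1 and 2), and that of Col1a2 between 1.68 and 4.01 CPM. Those of Igfbp4 (33.3 to 39.7 CPM) and Sparc (3054 to 3666 CPM) moved little.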

Other observations

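Some genes of the matrix lists outside the rule for named genes also split the libraries, and were picked after their values were seen. Timp3, a matrix-bound protease inhibitor gene, was at 0.00926, 0.0214, 70.9 and 48.0 CPM in mice 1, 2, 3 and 4, high in the same libraries as Dcn. So were Fstl1, a secreted glycoprotein gene of the Sparc family (0, 0, 13.0 and 6.83 CPM), and Tnr, the tenascin gene of perineuronal nets (0.0463, 0.150, 9.45 and 13.2 CPM). Adamts4, a protease gene that cleaves proteoglycans, had 28.5, 1.12, 47.1 and 0.0111 CPM and was high in mice 1 and 3 instead, as Col1a2 and Spock3 were. edgeR called none of these 4 genes above 10 CPM over the 4 mice.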
